A study of Mus musculus with 48 samples.

Results

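The 10 mast cell genes Cma1, Mcpt4, Cpa3, Tpsb2, Ms4a2, Fcer1a, Hdc, Gata2, Mrgprb3 and Mrgprb2 were taken from the array by gene symbol, out of 19147 genes that at least 1 probeset names. Each had exactly 1 probeset. Probe sequences were not at hand, so signal from related genes, as among the Mcpt and the Mrgprb genes, could not be checked. Of the 10 genes, 9 passed the filter on low values, a mean log2 intensity over all mice of at least 2.93. Ms4a2, with a mean of 2.30, did not pass and was not tested.

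The study asked which inhibitors of the triglyceride synthesis enzyme DGAT1 cause atrophy of the sebaceous glands of the skin. RNA of dorsal skin of 48 mice was measured, with 1 custom Affymetrix array per mouse. All mice were male diet-induced obese C57BL/6 mice on a high-fat diet, 8 weeks of age by the sample labels, and all were dosed by mouth for 14 days with compound or with the vehicle, 0.5% methylcellulose. Study 1 held Vehicle, Cpd1 and Cpd2 groups of 8 mice each. Study 2 held Vehicle, Cpd2 and Cpd6 groups of 4 mice each, and Study 4 held Vehicle, Cpd18 and Cpd6 groups of 4 mice each. Cpd2 and Cpd6 caused gland atrophy and are called skin-positive, while Cpd1 and Cpd18 did not and are called skin-negative. Compounds were given at 30 mg/kg unless the study indicates another dose, which was read here as 30 mg/kg for all but Cpd1. Skin sections were taken from mice given Cpd1 at 3 mg/kg, and which of these doses the Cpd1 arrays had is not settled, so that Cpd1 and Cpd2 are set side by side without a matched dose. Every sample is labelled dorsal skin, but by the methods biopsies could also be ventral. In Study 1, Vehicle replicate 4 was the lowest of its 8 mice in 7 of the 9 tested genes, and results of that study are also given without it.

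Mast cells are tissue-resident immune cells of the dermis, filled with granules of proteases, histamine and heparin. Their granule proteases include the chymases Cma1 and Mcpt4, the carboxypeptidase Cpa3 and the tryptase Tpsb2. IgE bound by a surface receptor, of which Fcer1a is the alpha and Ms4a2 the beta subunit, triggers release of the granules, and the Mas-related receptor Mrgprb2 does so without IgE in response to basic peptides and drugs. Hdc makes histamine, and Gata2 is a transcription factor of the mast cell lineage that endothelial cells also express. Basophils share Cpa3, Fcer1a, Ms4a2, Hdc and Gata2 with mast cells. In whole skin, fewer mast cells and less RNA per mast cell cannot be told apart.

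The promoters of 8 of the 10 genes were found in RefSeq (GRCm38.p6), as windows of 300 bases from 250 before to 50 after the start of transcription. Gata2 has 2 such windows, which makes 9, and none was found for Tpsb2 and Mrgprb3. The windows are shown for 3 of the granule proteases, whose levels moved together from mouse to mouse, and for Mrgprb2, which moved less with them. The capitals mark GATAA, the core of the GATA factor motif, or its reverse complement TTATC. The Cma1 window lies at chr14:55944626-55944925, that of Mcpt4 at chr14:56062261-56062560, that of Cpa3 at chr3:20242132-20242431 and that of Mrgprb2 at chr7:48558037-48558336, all on the minus strand.
Cma1: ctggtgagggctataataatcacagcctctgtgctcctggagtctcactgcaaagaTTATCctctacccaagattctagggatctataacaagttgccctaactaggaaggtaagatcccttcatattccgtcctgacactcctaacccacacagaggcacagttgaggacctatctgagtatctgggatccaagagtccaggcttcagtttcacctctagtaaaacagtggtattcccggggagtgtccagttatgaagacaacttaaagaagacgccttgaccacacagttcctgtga
Mcpt4: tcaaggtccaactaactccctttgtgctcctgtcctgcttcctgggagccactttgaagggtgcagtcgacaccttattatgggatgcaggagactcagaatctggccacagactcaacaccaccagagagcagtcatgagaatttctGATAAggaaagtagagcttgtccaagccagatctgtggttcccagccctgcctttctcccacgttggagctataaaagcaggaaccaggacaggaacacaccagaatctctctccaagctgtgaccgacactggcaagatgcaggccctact
Cpa3: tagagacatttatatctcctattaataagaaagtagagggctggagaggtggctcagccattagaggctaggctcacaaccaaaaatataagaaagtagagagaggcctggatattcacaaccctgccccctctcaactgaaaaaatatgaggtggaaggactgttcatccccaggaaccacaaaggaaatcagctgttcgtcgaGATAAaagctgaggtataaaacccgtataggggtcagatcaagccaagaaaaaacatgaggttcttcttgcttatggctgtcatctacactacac
Mrgprb2: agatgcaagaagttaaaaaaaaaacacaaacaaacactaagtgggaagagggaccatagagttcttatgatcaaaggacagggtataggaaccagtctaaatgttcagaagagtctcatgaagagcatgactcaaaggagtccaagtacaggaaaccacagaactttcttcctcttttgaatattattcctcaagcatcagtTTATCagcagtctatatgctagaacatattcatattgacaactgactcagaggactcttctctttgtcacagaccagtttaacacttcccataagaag
GATAA on either strand was present in 6 of the 9 windows and in 25.4% of 32851 mouse promoters of the same length. It lay 45 bases before the start in Cpa3, 48 in Mrgprb2, 92 in Fcer1a, 102 in Mcpt4 and 194 in Cma1, while Ms4a2 held it at 224, 37 and 10 bases before the start. The windows of Hdc and Gata2 held none. A match of letters describes the window and does not show binding. Cma1 and Mcpt4 lie in 1 cluster on chromosome 14, with 4 protein-coding genes between them (Cma2, Mcpt1, Mcpt2 and Mcpt9), and Mrgprb2 and Mrgprb3 are direct neighbours on chromosome 7.

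The largest change of a mast cell gene was a rise of Mrgprb3, a Mas-related receptor gene beside Mrgprb2, with Cpd2 in Study 1. In Vehicle skin its log2 intensity ran from 4.44 to 5.99 with a median of 5.64, and in Cpd2 skin from 6.50 to 7.19 with a median of 6.79. Every Cpd2 mouse was above every Vehicle mouse, as for 1.49% of all 28789 probesets tested in this comparison. The log2 fold change was 1.37 (SE 0.20, n = 8 mice per group), a 2.58-fold difference (limma adjusted p = 4.5e-05), and ranked 8th among all increases. Without Vehicle replicate 4 it was 1.22 (limma adjusted p = 2.54e-05). With Cpd1 Mrgprb3 ran from 5.22 to 6.35 with a median of 5.63, near that of Vehicle, and the change of 0.29 (SE 0.20) did not pass the test (limma adjusted p = 0.548) and was 0.15 without Vehicle replicate 4.

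Mrgprb2 rose in the same Cpd2 mice. Its log2 intensity was 5.82 to 7.06 with a median of 6.65 in Vehicle skin, 6.37 to 7.17 with a median of 6.90 with Cpd1, and 6.91 to 7.85 with a median of 7.39 with Cpd2. The Cpd2 and Vehicle ranges overlapped only between 6.91 and 7.06. The log2 fold change against Vehicle was 0.76 (SE 0.16, limma adjusted p = 0.00199) with Cpd2 and 0.19 (SE 0.16, limma adjusted p = 0.638) with Cpd1. Set against each other, Cpd2 was above Cpd1 by a log2 difference of 1.07 (SE 0.20, limma adjusted p = 0.000822) for Mrgprb3 and 0.57 (SE 0.16, limma adjusted p = 0.0163) for Mrgprb2. Every Cpd2 mouse was above every Cpd1 mouse for Mrgprb3, as for 1.6% of probesets. These are the 2 members called higher in the comparison with Cpd1, where 8.99% of all probesets were called higher. The 3 groups of Study 1 were fitted together, and both compounds share its Vehicle mice.

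**Figure D1:**
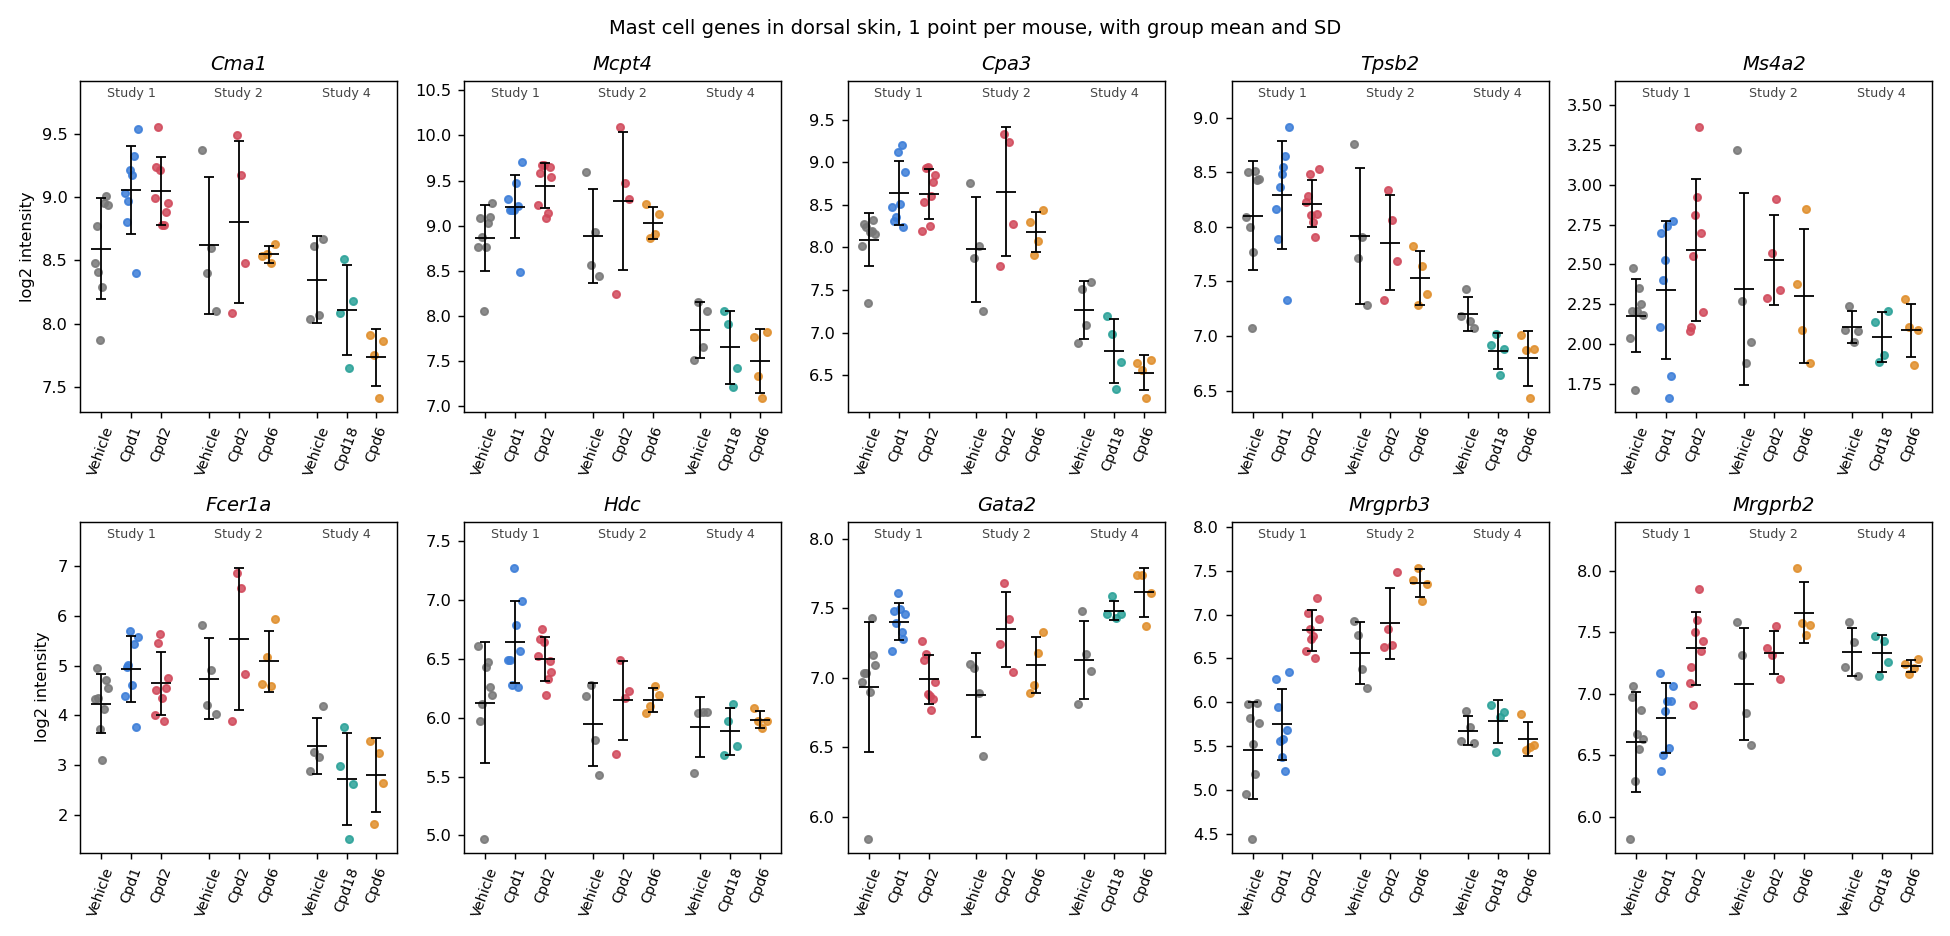
Log2 intensity (vertical axis) of the 10 mast cell genes in the 9 study and treatment groups (horizontal axis), with 1 point per mouse and the group mean and SD in black. The Cpd2 mice of Study 1 lie between 6.50 and 7.19 for Mrgprb3, above all Vehicle mice of that study, and Ms4a2 reaches at most 3.36.

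Of the 4 granule proteases, Mcpt4 and Cpa3 rose with Cpd2, while Cma1 and Tpsb2 did not pass the test. Mcpt4, a chymase of connective tissue mast cells, had log2 intensities of 8.06 to 9.25 with a median of 8.96 in Vehicle skin and of 9.09 to 9.67 with a median of 9.56 with Cpd2. Cpa3 had 7.35 to 8.32 with a median of 8.19 in Vehicle skin and 8.19 to 8.95 with a median of 8.68 with Cpd2. The groups overlapped for both genes at the lower end of the Cpd2 range. The log2 fold change was 0.58 (SE 0.15, limma adjusted p = 0.0111) for Mcpt4 and 0.54 (SE 0.16, limma adjusted p = 0.0204) for Cpa3. Cma1 had 7.87 to 9.01 in Vehicle and 8.78 to 9.55 in Cpd2 skin. Its difference of 0.46 (SE 0.16) did not pass the test (limma adjusted p = 0.0589). It passed without any 1 of Vehicle replicates 6, 7 and 8 and Cpd2 replicates 5 and 6, at 0.50 to 0.52. These are the highest Vehicle and the lowest Cpd2 mice, so leaving them out widens the difference. Without Vehicle replicate 4, the lowest of its group, the Cma1 difference was 0.355 and did not pass (limma adjusted p = 0.1). With all mice, the difference of the tryptase Tpsb2 was 0.11 (SE 0.20, limma adjusted p = 0.774), with ranges of 7.07 to 8.51 and 7.91 to 8.53.

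In all, 4 of the 9 tested mast cell genes were called with Cpd2 in Study 1, all higher, where 13.1% of all probesets were called and 7.09% were called higher. All 9 had a difference above 0, with a median of 0.46 against 0.04 over all probesets. Without Vehicle replicate 4 the same 4 were called, with 0.71 for Mrgprb2, 0.46 for Mcpt4 and 0.43 for Cpa3, and Tpsb2, Gata2 and Hdc were at −0.04, −0.10 and 0.20. The other members gave values that did not pass, with 0.41 (SE 0.29) for Fcer1a, 0.37 (SE 0.18) for Hdc and 0.06 (SE 0.15) for Gata2. Ms4a2, near the lower end of the scale, lay at 1.71 to 2.48 in Vehicle and 2.08 to 3.36 in Cpd2 skin.

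Markers of other cell types differed between the same mice. All 12 skeletal muscle markers were called lower with Cpd2, and their mean log2 intensity was 11.1 to 12.8 in Vehicle and 5.87 to 12.6 in Cpd2 skin. Of 7 T cell markers 6 were higher, with means of 6.88 to 7.57 against 7.60 to 8.25, and of 7 keratinocyte markers 5 were higher, with means of 10.7 to 11.2 against 11.2 to 11.5. Of 9 sebaceous gland markers 5 were lower, with Scd3, a fatty acid desaturase, at −3.68 (SE 0.42) and list means of 7.72 to 8.92 in Vehicle and 6.82 to 8.28 in Cpd2 skin. Of 3 nerve and Schwann cell markers 2 were higher, Ngfr at 0.46 (SE 0.15) and Mbp at 0.52 (SE 0.12), with means of 7.33 to 7.89 and 7.72 to 8.08, and 2 of 10 endothelial markers were lower, Tek and Esam. With the 3 Cpd2 mice of least muscle signal left out, Mrgprb3 still differed by 1.31 (limma adjusted p = 0.00188) and Mrgprb2 by 0.83 (limma adjusted p = 0.0094), while Mcpt4, at 0.45 (limma adjusted p = 0.164), and Cpa3, at 0.39 (limma adjusted p = 0.243), no longer passed. With the mean of the muscle markers as a covariate the same split of calls appeared. It gave 1.38 for Mrgprb3 and 0.93 for Mrgprb2, both called. It gave 0.48 for Mcpt4 (limma adjusted p = 0.197) and 0.43 for Cpa3 (limma adjusted p = 0.274), not called. Cma1 was at 0.36 (limma adjusted p = 0.308) in the first setting and 0.35 (limma adjusted p = 0.429) in the second. The first setting has fewer Cpd2 mice, and the share of all probesets called in either is not given. The lost calls are therefore not read as a part of muscle in the protease differences. The part of the T cell, keratinocyte, sebaceous gland, nerve and endothelial differences in the result was not tested. Of 5 basophil markers tested, none was called, and the largest difference was that of Mcpt8, a basophil protease, at 0.72 (SE 0.27, limma adjusted p = 0.0853).

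With the skin-negative Cpd1 none of the 9 genes was called in Study 1, where 0.327% of all probesets were. Of them 6 had an unadjusted limma p under 0.05, as did 6 of the 9, not all the same, with Cpd2. With Cpd1 0 passed the methods' t-test after adjustment. The share of all probesets at either mark is not given, here or for such counts below. These counts therefore do not set the members apart from other probesets. All 9 differences were above 0, with a median of 0.47 against −0.002 over all probesets, and without Vehicle replicate 4 they ran from 0.04 for Tpsb2 to 0.62 for Fcer1a, with 0 called. Cpa3 differed by 0.55 (SE 0.16, limma adjusted p = 0.124), with 8.24 to 9.20 and a median of 8.49, and Cma1 by 0.47 (SE 0.16, limma adjusted p = 0.197), with 8.40 to 9.54 and a median of 9.10. Gata2, at 7.19 to 7.61 against 5.84 to 7.43 in Vehicle skin, differed by 0.47 (SE 0.15, limma adjusted p = 0.149). For Cpa3 the difference from Vehicle was 0.54 with Cpd2, near the 0.55 with Cpd1. Its unadjusted limma p was 0.00185 with Cpd2 and 0.00161 with Cpd1. That Cpa3 was called with Cpd2 only thus reflects the adjustment over all probesets and not a larger difference. None of the proteases was called between the Cpd2 and Cpd1 groups. The log2 difference was −0.01 (95% interval −0.34 to 0.32) for Cma1, −0.01 (−0.33 to 0.31) for Cpa3, 0.24 (−0.08 to 0.55) for Mcpt4 and −0.08 (−0.48 to 0.32) for Tpsb2. The interval of Mcpt4 reaches near its difference of Cpd2 from Vehicle, 0.58, so equal levels are not shown.

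Gata2 went the other way between the compounds. It was lower with Cpd2, at 6.77 to 7.26, than with Cpd1, by −0.42 (SE 0.15, limma adjusted p = 0.0482), the third of 3 members called in the comparison of Cpd2 with Cpd1, where 17.2% of all probesets were called and 8.25% were called lower. The call was lost without those 3 Cpd2 mice of least muscle signal (−0.40, limma adjusted p = 0.161) and in 13 of the 16 fits that left out 1 Cpd1 or Cpd2 mouse, all but those without Cpd1 replicate 1, Cpd2 replicate 1 or Cpd2 replicate 3. It held in 7 of 13 other alternatives, and was also lost with no filter on low values (limma adjusted p = 0.0611), with quantile normalization (0.0829), with no intensity trend (0.0515), with the replicate block (0.0755) and with the muscle covariate (−0.33, limma adjusted p = 0.278). Of 10 endothelial markers, of the other cells that express Gata2, 6 were called lower with Cpd2 than with Cpd1, with a median of −0.55 over the list, and the mean of the list was 7.61 to 8.29 with Cpd2 and 8.35 to 8.68 with Cpd1. Its part in the Gata2 difference was not tested.

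**Figure D2:**
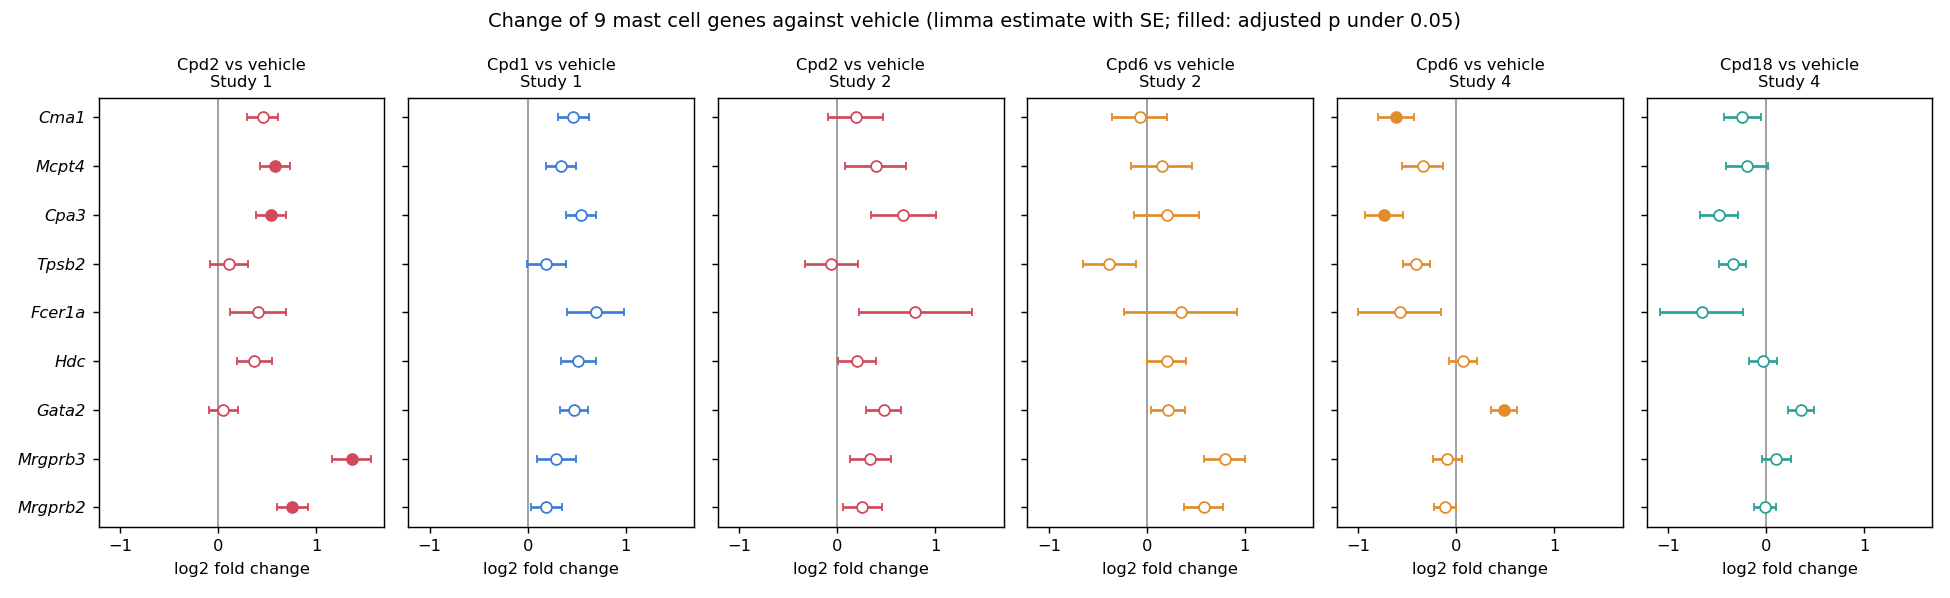
Log2 fold change against the Vehicle group of the same study (horizontal axis) of the 9 tested mast cell genes (vertical axis) in 6 comparisons, as the limma estimate with its SE. Filled points passed an adjusted p under 0.05. They are Mcpt4, Cpa3, Mrgprb3 and Mrgprb2 with Cpd2 in Study 1, and Cma1, Cpa3 and Gata2 with Cpd6 in Study 4.

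In Study 2, with 4 mice per group, none of the 9 genes was called with Cpd2 or Cpd6, where 0.129% and 0.379% of all probesets were called, and 1 and 2 of them had an unadjusted limma p under 0.05. No member passed the methods' t-test after adjustment either. The value nearest to a call was again Mrgprb3. Its log2 intensities were 6.93, 6.77, 6.38 and 6.16 in the Vehicle mice, 6.63, 6.83, 6.65 and 7.49 with Cpd2, and 7.39, 7.53, 7.15 and 7.35 with Cpd6. Every Cpd6 mouse was above every Vehicle mouse, as for 4.31% of probesets, while the Cpd2 mice overlapped with Vehicle. The log2 fold change was 0.79 (SE 0.21, limma adjusted p = 0.117) with Cpd6 and 0.34 (SE 0.21, limma adjusted p = 0.803) with Cpd2. Without Vehicle replicate 1, the highest of that group, the Cpd6 difference was 0.92 and passed (limma adjusted p = 0.0411). Leaving out that mouse widens the difference by itself, and no other fit without 1 mouse passed.

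Mrgprb2 followed the same order, with 7.58, 7.31, 6.84 and 6.58 in Vehicle mice, 7.37, 7.31, 7.55 and 7.12 with Cpd2, and 8.02, 7.57, 7.48 and 7.56 with Cpd6. The difference from Vehicle was 0.58 (SE 0.20, limma adjusted p = 0.237) with Cpd6 and 0.26 (SE 0.20, limma adjusted p = 0.859) with Cpd2, and 1 Vehicle mouse lay within the Cpd6 range for this gene. The proteases had a wider spread between mice than Mrgprb2 and Mrgprb3 in the Vehicle and Cpd2 groups. With Cpd6 the SD was 0.066 for Cma1 and 0.246 for Tpsb2, against 0.159 for Mrgprb3 and 0.245 for Mrgprb2. Cpa3 was 8.76, 7.88, 8.02 and 7.26 in Vehicle mice, 7.78, 9.33, 9.24 and 8.27 with Cpd2, and 8.30, 7.91, 8.08 and 8.44 with Cpd6. Its difference from Vehicle was 0.67 (SE 0.33, limma adjusted p = 0.709) with Cpd2 and 0.20 (SE 0.33, limma adjusted p = 0.883) with Cpd6. The IgE receptor gene Fcer1a spread most, from 3.88 to 6.87 among the Cpd2 mice.

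At the same dose of 30 mg/kg, Cpd6 and Cpd2 could not be separated in Study 2, where 0 members and 0.0% of all probesets were called. The log2 difference of Cpd6 from Cpd2 was 0.46 (95% interval 0.01 to 0.90, limma adjusted p = 0.587) for Mrgprb3 and 0.32 (−0.10 to 0.75) for Mrgprb2. It was −0.47 (−1.18 to 0.24) for Cpa3 and −0.26 (−0.86 to 0.34) for Cma1. Of the 9, Mrgprb3 alone had an unadjusted limma p under 0.05.

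The Cpd2 effect on Mrgprb3 was larger in Study 1 than in Study 2 by 1.03 (95% interval 0.42 to 1.64), which did not pass the test of the difference (limma adjusted p = 0.0776, where 0.726% of all probesets were called). Without Vehicle replicate 4 of Study 1, the lowest mouse of its group, the difference was 0.88 and passed (limma adjusted p = 0.046). Without Cpd2 replicate 4 of Study 2, the highest of its group, it was 1.22 (limma adjusted p = 0.0255). Leaving out that Cpd2 mouse widens the difference by itself, and no further fit without 1 mouse passed. For Mrgprb2 the difference between the studies was 0.50 with all mice (−0.002 to 1.01, limma adjusted p = 0.326). For Gata2 it was −0.42 (−0.88 to 0.05, limma adjusted p = 0.39), and −0.57 without Vehicle replicate 4 of Study 1 (limma adjusted p = 0.0445). The Vehicle mice of Study 2, at 6.16 to 6.93 for Mrgprb3, were all above those of Study 1, at 4.44 to 5.99. Study and array processing cannot be told apart here.

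In Study 4, 2 of the 4 proteases, Cpa3 and Cma1, were lower with Cpd6, and Tpsb2 and Mcpt4 did not pass the test. Cpa3 had log2 intensities of 6.88, 7.51, 7.09 and 7.60 in the Vehicle mice and of 6.64, 6.56, 6.23 and 6.68 with Cpd6. Cma1 had 8.04, 8.61, 8.07 and 8.67 in Vehicle mice and 7.91, 7.75, 7.41 and 7.86 with Cpd6. Every Cpd6 mouse was below every Vehicle mouse for both genes. The log2 fold change was −0.74 (SE 0.19, limma adjusted p = 0.0269) for Cpa3 and −0.62 (SE 0.19, limma adjusted p = 0.047) for Cma1. Tpsb2, with 7.18, 7.43, 7.14 and 7.07 against 7.01, 6.87, 6.43 and 6.88, did not overlap either, and its difference of −0.41 (SE 0.14) did not pass (limma adjusted p = 0.0669). Mcpt4, at −0.34 (SE 0.21, limma adjusted p = 0.31), overlapped.

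Gata2 was higher with Cpd6 in Study 4, at 7.74, 7.74, 7.37 and 7.61 against 6.81, 7.48, 7.17 and 7.05 in Vehicle mice, with 1 Vehicle mouse inside the Cpd6 range. Its log2 fold change was 0.49 (SE 0.13, limma adjusted p = 0.0325). Of the 9 genes 3 were thus called, 2 lower and 1 higher, where 10.7% of all probesets were called, 6.17% lower and 4.56% higher. With Tpsb2, 3 genes lay below Vehicle in every mouse, as did 10.1% of all probesets. The Mas-related receptor genes did not pass, with −0.10 (SE 0.15) for Mrgprb3 and −0.12 (SE 0.11) for Mrgprb2. Under the methods' t-test 0 of the 9 were called after adjustment, a step that the methods do not name. The share of all probesets that this test called is not given, so the count does not set the members apart. The Cma1 call held in 4 of 12 alternatives, against 8 of 12 each for Cpa3 and Gata2, and was lost with no filter on low values (limma adjusted p = 0.0547), array medians set equal (0.0544), quantile normalization (0.0577) and no intensity trend (0.0666). Leaving out 1 Cpd6 or Vehicle mouse left 0 to 2 calls, with 0 without Cpd6 replicate 2, Cpd6 replicate 4 or Vehicle replicate 4, and 1 without Cpd6 replicate 1, Cpd6 replicate 3 or Vehicle replicate 2.

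Markers of other cells moved in the same mice. Of 6 macrophage markers 4 were lower with Cpd6 (Adgre1, Csf1r, Mrc1 and Cd163), and the mean of the list was 7.41 to 7.60 in Vehicle and 6.92 to 7.12 in Cpd6 skin. Of 10 endothelial markers 5 were higher (Pecam1, Cdh5, Kdr, Esam and Vwf), with means of 7.82 to 8.29 and 8.27 to 8.41. All 5 melanocyte markers and 3 of 9 growing hair follicle markers were lower, and the hair follicle mean was 4.37 to 10.4 in Vehicle and 4.16 to 6.09 in Cpd6 skin. Of 9 sebaceous gland markers 5 were lower, with Scd3 at −2.11 (SE 0.25) and list means of 8.14 to 8.29 in Vehicle and 7.28 to 7.76 in Cpd6 skin, and of 8 fibroblast markers 2 were lower (Dcn and Pdgfra), with means of 11.3 to 11.5 and 11.1 to 11.3. Of 7 keratinocyte and 12 skeletal muscle markers 2 each were higher, and of 7 T cell markers 1 was higher and 1 lower. With the hair follicle mean as a covariate no member was called, with −0.97 for Cpa3 (limma adjusted p = 0.0506), −0.67 for Cma1 (limma adjusted p = 0.179) and 0.31 for Gata2 (limma adjusted p = 0.366). The part of the macrophage, endothelial, melanocyte, sebaceous gland, fibroblast, keratinocyte and T cell differences in the result was not tested.

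With Cpd18, the skin-negative compound of Study 4, 0 of the 9 genes were called, where 0.00347% of all probesets were, and 3 had an unadjusted limma p under 0.05. Cpa3 had 7.19, 6.98, 6.34 and 6.65, a difference from Vehicle of −0.48 (SE 0.19, limma adjusted p = 0.554). Tpsb2 had 6.92, 7.02, 6.64 and 6.88, all below Vehicle, as were 1.98% of probesets, with −0.34 (SE 0.14, limma adjusted p = 0.551). Gata2 had 7.46, 7.59, 7.43 and 7.46, with 0.36 (SE 0.13, limma adjusted p = 0.526). Of 6 macrophage markers none was called with Cpd18, but their median difference from Vehicle was −0.63, against −0.60 with Cpd6. Their mean was 6.84 to 7.27 with Cpd18, below the 7.41 to 7.60 of Vehicle. Cpd6 and Cpd18, given at the same dose, did not differ in any member by the test, where 0.49% of all probesets did, and 0 of the 9 had an unadjusted limma p under 0.05. The log2 difference of Cpd6 from Cpd18 was −0.26 (95% interval −0.67 to 0.15) for Cpa3, −0.37 (−0.77 to 0.02) for Cma1 and 0.13 (−0.15 to 0.41) for Gata2. The methods' t-test called 0 members after adjustment in these comparisons as well as between Cpd6 and Cpd2 in Study 2. Both compounds share the Vehicle mice of Study 4.

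The Cpd6 effect was also compared between Studies 2 and 4, with 0 members called and 0.0% of all probesets. The largest difference was that of Cpa3, 0.94 (95% interval 0.17 to 1.71, limma adjusted p = 0.488), followed by Fcer1a at 0.92 (−0.53 to 2.38) and Mrgprb3 at 0.89 (0.19 to 1.59, limma adjusted p = 0.458). In Study 4 Fcer1a lay near the lower end of the scale, at 2.89 to 4.19 in Vehicle and 1.82 to 3.48 in Cpd6 skin. The size of its difference between the studies is therefore uncertain. Of the 9, Cpa3, Mrgprb3 and Mrgprb2 had an unadjusted limma p under 0.05.

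Across the 9 groups the levels followed the study for several genes. The 3 groups of Study 4 had the lowest means of Mcpt4 (7.50 to 7.85), Cpa3 (6.53 to 7.27), Tpsb2 (6.80 to 7.21), Cma1 (7.73 to 8.35) and Fcer1a (2.72 to 3.38). For Fcer1a these means lie near the cutoff of the filter on low values, with single mice down to 1.52 with Cpd18 and 1.82 with Cpd6. The means of the other 6 groups ran from 8.87 to 9.45 for Mcpt4 and from 7.98 to 8.65 for Cpa3. Mrgprb3 was highest in the 3 groups of Study 2 and the Cpd2 group of Study 1, with means of 6.56 to 7.36 against 5.45 to 5.78 elsewhere. Gata2 and Hdc did not follow this pattern, with means of 6.87 to 7.61 and of 5.88 to 6.64. Neighbours in the order of the group means overlapped in their mice for every gene, except Tpsb2 between the Vehicle and Cpd18 groups of Study 4 and Mrgprb3 between the Vehicle group of Study 2 and the Cpd18 group of Study 4. These levels are a description, since the studies were not run side by side.

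Between mice of the same group the proteases moved together. Over the 48 mice, with each group's mean removed, Pearson's r among Cma1, Mcpt4, Cpa3 and Tpsb2 was 0.74 to 0.88, and between them and Fcer1a 0.59 to 0.78. Hdc and Gata2 had r = 0.74 with each other and 0.51 to 0.66 with the proteases. Mrgprb2 and Mrgprb3 had 0.49 with each other and 0.16 to 0.46 with the proteases. The points share array and biopsy, and no p is given. In the ranks that follow, the probesets ranked include the other members, which themselves make up the mean. When each gene was set against the mean of the other members, Cma1 and Mcpt4 ranked 2nd of all 28789 probesets, Cpa3 ranked 4th and Tpsb2 5th, Gata2 168th, Fcer1a 290th and Hdc 418th, while Mrgprb3 ranked 2062nd and Mrgprb2 5201st. Without Vehicle replicate 4 of Study 1, r among the proteases was 0.70 to 0.86, that of Hdc with Gata2 was 0.56, and the ranks were 2nd to 6th for the proteases, 49th for Fcer1a, 295th for Gata2, 920th for Hdc, 4759th for Mrgprb3 and 5982nd for Mrgprb2. In Study 1 alone Mcpt4, Cma1 and Tpsb2 ranked 1st, 4th and 18th, Cpa3 181st, Gata2 480th, Hdc 1180th, Fcer1a 1645th, Mrgprb3 2203rd and Mrgprb2 10727th.

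**Figure D3:**
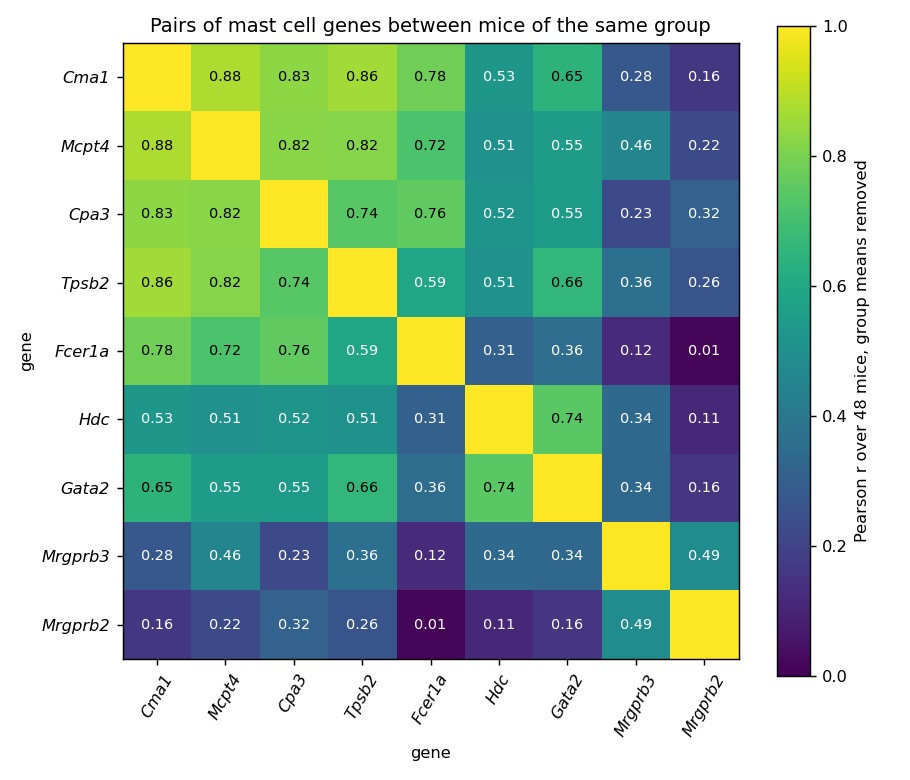
Pearson's r between pairs of the 9 tested mast cell genes (both axes) over 48 mice after the mean of each group was removed, with the value in each cell and the scale from 0 to 1 in the color bar. The proteases Cma1, Mcpt4, Cpa3 and Tpsb2 form a block of 0.74 to 0.88, and the values of Mrgprb2 and Mrgprb3 with the proteases are at most 0.46.

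The 10 genes outside the members that moved most like their mean were Apobec3, a cytidine deaminase (r = 0.83), Fcgr3, an IgG receptor (0.81), Slamf9 (0.81), Tyrobp, an adaptor of immune receptors (0.79), Ifi27 (0.79), Cyp11a1, the enzyme that starts steroid hormone synthesis (0.79), Evi2a (0.78), Ly86 (0.78), P2rx4, a receptor for extracellular ATP (0.78), and Il10ra, an interleukin 10 receptor chain (0.78). Of these, 1 was among the first 10 when Study 1 was taken alone (Evi2a), and 1 when the group means were kept (Cyp11a1). Kit, the growth factor receptor that mast cells need, was measured by 2 probesets, with r = −0.10 and −0.05. Kit was not called in any comparison with Vehicle, and its log2 fold changes by the brighter probeset ran from −0.41 to −0.004. Melanocytes and germ cells also express Kit.

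Other genes of mast cell biology were read from 9 lists of 72 genes, of which 62 were on the array and 46 were tested. With Cpd2 in Study 1, 7 were higher, 1 was lower and 38 were not called, with a median of 0.20, where 13.1% of all probesets were called and 7.09% were called higher. Ctsg, the granule protease cathepsin G, was higher by 0.59 (SE 0.17, limma adjusted p = 0.0232), and Ndst2, which sulfates heparin, by 0.31 (SE 0.08, limma adjusted p = 0.0128). Of 8 receptor and IgE signalling genes 3 were higher, the adaptors Lat at 0.77 (SE 0.12), which T cells use as well, and Lat2 at 0.45 (SE 0.12), and the adenosine receptor Adora3 at 0.39 (SE 0.12). Among the growth and attraction factors, the alarmin Il33 was higher by 0.61 (SE 0.10, limma adjusted p = 0.000212), and Kitl, the ligand of Kit, was lower by −0.89 (SE 0.20, limma adjusted p = 0.0035), with −0.93 at its other probeset. The chemokine Cxcl12 was called lower at its dimmer probeset only, by −0.44 (SE 0.09). Stat5a, a transcription factor of cytokine signalling, was higher by 0.27 (SE 0.08).

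With Cpd6 in Study 4, 1 of the 46 genes was higher, 9 were lower and 36 were not called, with a median of −0.16, where 10.7% of all probesets were called, 4.56% higher and 6.17% lower. Of 7 granule matrix and amine storage genes, Srgn, the proteoglycan core of the granule, was lower by −0.53 (SE 0.10), the fusion protein Vamp8 by −0.42 (SE 0.09), and Tph1, which starts serotonin synthesis, was higher by 0.79 (SE 0.22, limma adjusted p = 0.0357). Fcer1g, the signalling chain of the IgE receptor, was lower by −0.62 (SE 0.10, limma adjusted p = 0.00249), and the kinases Btk and Syk by −1.01 (SE 0.19) and −0.42 (SE 0.11). The cytokine Tslp was lower by −0.78 (SE 0.17), the chemokine Cxcl12 by −0.34 (SE 0.10), the leukotriene pathway gene Alox5ap by −0.77 (SE 0.10, limma adjusted p = 0.000547) and the histamine receptor Hrh1 by −0.69 (SE 0.16). Srgn, Fcer1g, Syk, Btk and Alox5ap are also expressed by macrophages, whose markers were lower in the same mice. The part of macrophages in these differences was not tested. None of the 46 genes was called with Cpd1, with Cpd18, or with either compound in Study 2, and the medians were 0.02, −0.16, 0.05 with Cpd2 and 0.01 with Cpd6. Of 11 other Mas-related receptor genes 10 were on the array and 3 were tested, and none was called.

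**Figure D4:**
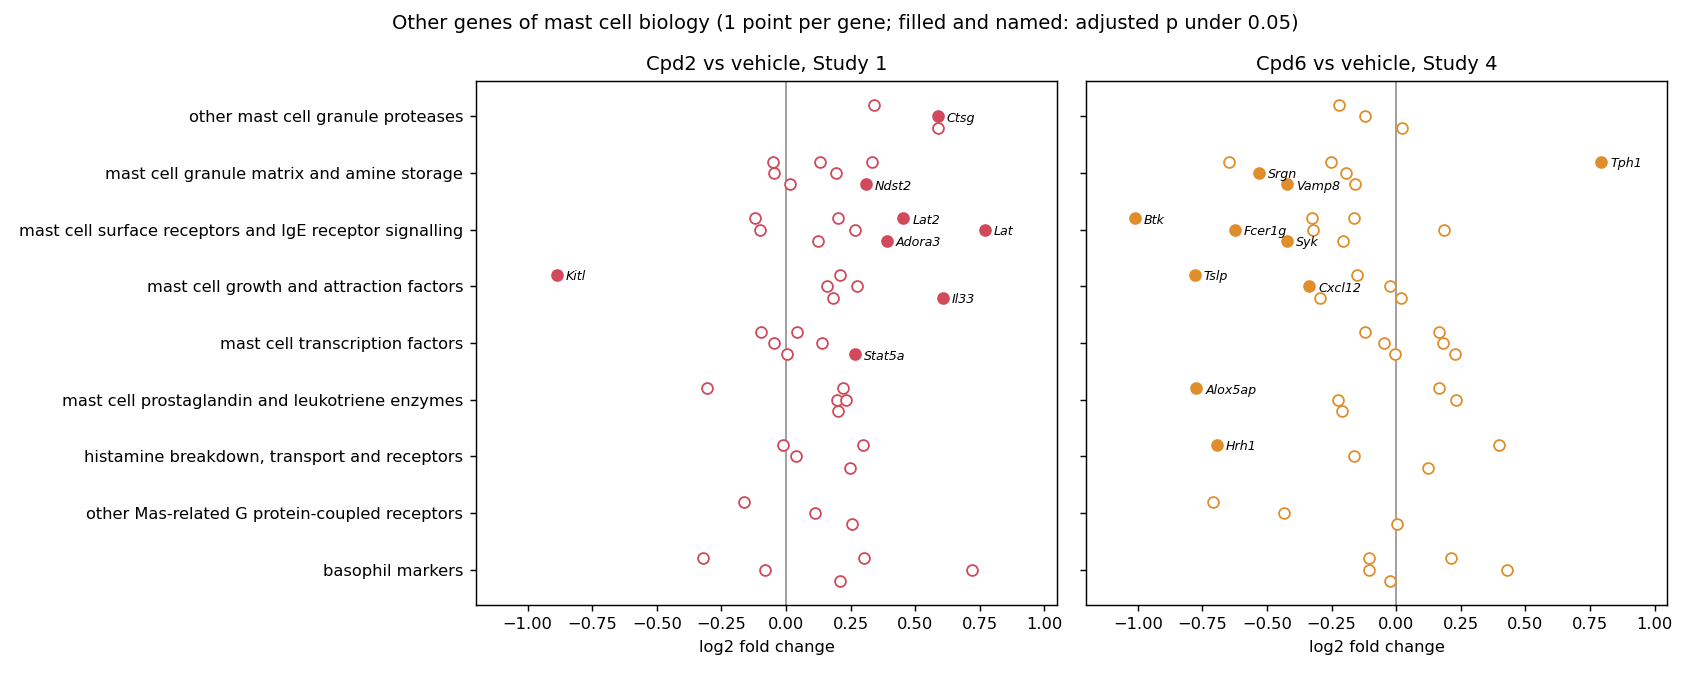
Log2 fold change against Vehicle (horizontal axis) of other genes of mast cell biology by list (vertical axis), with Cpd2 in Study 1 and Cpd6 in Study 4, 1 point per gene. Filled points with a name passed an adjusted p under 0.05, with Lat at 0.77 and Kitl at −0.89 in the first comparison and Tph1 at 0.79 and Btk at −1.01 in the second.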

How the data were processed

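Skin RNA of 48 mice was profiled, with 1 array per mouse, and groups were taken from the sample labels. The authors made the values with the RMA algorithm (version not given in the sources used here), and the deposited table holds linear intensities of 1.60 to 13570 for 38385 probesets, with array medians of 26.4 to 30.8. Base 2 logarithms (log2) of these deposited intensities were used. The present call of the methods needs probe-level data, so probesets with a mean under the 25th percentile (2.93) were left out, which left 28789. Annotation gave 1 gene for 24478 probesets, several for 65 and none for 13842.

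Under R 4.3.3, limma 3.58.1 fitted each study on its own (1 mean per group, empirical Bayes with an intensity trend), and p-values were adjusted by the Benjamini-Hochberg method over all tested probesets, with calls at an adjusted p under 0.05. Differences between studies were tested in 1 fit of all arrays. The methods' t-test stands in for the ANOVA of the methods. Its p-values were adjusted here in the same way, while the paper selected probesets by ANOVA p and fold change and names no adjustment. Its calls here are therefore not those of the paper's own criterion. The fit was tested on simulated data.

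The members and gene lists were chosen with earlier results of these data known. Lists used the brightest probeset of a gene. Named are all members, up to 4 called genes per list and comparison, the 10 genes most like the members, and Kit. All called endothelial markers with Cpd6 in Study 4 were named too. Mcpt8, which was not called, was named after its value was seen. Alternatives were other filters, normalizations, weights, tests, covariates and samples, an offset of 16 before the logarithm, the replicate number as a block, and leaving out each mouse. The number of arrays limits the precision. Mice of a group are separate animals. Promoters came from RefSeq GRCm38.p6. Python 3.11.15 was used for tables and figures, with pandas 2.3.3, numpy 2.4.6 and matplotlib 3.10.9.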

Additional observations from a re-analysis of the deposited data

Results flagged for a closer look

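In 7 of 90 groups of mice (10 genes in 9 groups), 1 mouse stood apart from the others by Dixon's criterion, which chance meets in about 1 in 20 groups. Vehicle replicate 4 of Study 1 accounted for 4 of them, with a log2 intensity of 8.06 for Mcpt4 (nearest mouse 8.76), 7.35 for Cpa3 (8.02), 4.97 for Hdc (5.97) and 5.84 for Gata2 (6.90). Cpd1 replicate 7 of Study 1 was low for Mcpt4, at 8.49 (9.17). In Study 4, Vehicle replicate 1 was low for Hdc, at 5.53 (6.04), and Cpd6 replicate 1 was high for Mrgprb3, at 5.86 (5.51).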

How the results depend on the processing

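With Cpd2 in Study 1 the 4 called genes became 2 with the muscle marker mean as a covariate and 2 without the 3 Cpd2 mice of least muscle signal, and 4 to 5 with 1 mouse left out. In the first 2 of these settings Mcpt4 was at 0.48 and 0.45, against 0.58 in the main fit. Cpa3 was at 0.43 and 0.39, against 0.54. The share of all probesets called under each alternative is not given, so the counts in this section do not set the members apart from other probesets. Mrgprb3 and Mrgprb2 were called in all 13 alternatives and in all 16 fits without 1 mouse. With Cpd1 the count of 0 became 1 in 1 fit of all 48 arrays and 2 with the hair follicle covariate. In the comparison of Cpd2 with Cpd1, fits without 1 mouse gave 2 to 3 in place of 3. With Cpd6 in Study 2 the count of 0 became 1 with array weights and was 0 to 1 without 1 mouse. With Cpd6 in Study 4 the count of 3 became 0 in 1 fit of all 48 arrays, 0 under the methods' t-test, 0 with the muscle covariate and 0 with the hair follicle covariate, and was 0 to 2 without 1 mouse. The Cma1 call there held in 4 of 12 alternatives, and the Gata2 call between Cpd2 and Cpd1 in 7 of 13. The Cpd2 effect between Studies 1 and 2 went from 0 to 2 with array weights and 1 with the hair follicle covariate, and was 0 to 2 without 1 mouse. The cause was not tested. Of the 10 genes most like the members, 1 remained when the group means were kept and 1 in Study 1 alone. Same-numbered mice of different groups had a median r of −0.04, −0.03 and 0.11 in Studies 1, 2 and 4. For differently numbered mice it was 0.015, 0.01 and −0.04. The values of same-numbered mice lay within the range of the others in each study. The main fit treated the mice as unpaired, and these values cannot exclude a pairing. The replicate block gave 4, 0, 2, 0, 0, 0, 4, 0 and 0 calls in the comparisons within Studies 1, 2 and 4, the 4 in Study 4 with Cpd6 including Tpsb2. Of 2401 values of single genes under alternatives, 0 called ones changed sign, and 79 values that passed in neither setting did. Each gene had 1 probeset, so the dimmer probeset gave no alternative.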
